A study of Saccharomyces cerevisiae with 12 samples.

Results

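The 10 histone genes of budding yeast (Saccharomyces cerevisiae) were followed in cultures with and without a clam lectin. They were chosen by their systematic identifiers in the count table and were HTA1 (YDR225W) and HTA2 (YBL003C) for H2A, HTB1 (YDR224C) and HTB2 (YBL002W) for H2B, HHT1 (YBR010W) and HHT2 (YNL031C) for H3, HHF1 (YBR009C) and HHF2 (YNL030W) for H4, HTZ1 (YOL012C) for the variant H2A.Z and HHO1 (YPL127C) for the linker histone H1. All 10 were found among the 7192 features of the table, and all 10 were among the 6237 features with enough counts to test. All 12 samples were wild-type cells in mid-logarithmic phase, shaken at 200 rpm and 30 °C in the rich medium YPD. The 6 controls (numbered 2, 3, 4, 6, 7 and 8) had no treatment, and the other 6 samples (numbered 2, 3, 4, 5, 6 and 8) were given the lectin of the clam Cyclina sinensis (CSL), a protein that binds N-acetylgalactosamine and mannose. The name of the strain, its ploidy, the lectin dose, the duration of the treatment and a buffer for the controls were not given in the sources used here. The design text speaks of biological replicates without saying what was separate, so p-values measure the spread between these samples.

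A nucleosome is built from the 4 core histones H2A, H2B, H3 and H4, and the linker histone binds the DNA between nucleosomes. H2A.Z replaces H2A in the nucleosomes that flank many promoters and is placed there by the SWR1 complex. Yeast carries a pair of genes for each core histone, arranged as 4 divergent gene pairs that each share a promoter region. Their transcription rises around S phase, when new DNA has to be packaged, through the activator Spt10 with Spt21 and the G1/S factors SBF and MBF. Outside S phase the HIR complex represses these gene pairs, except HTA2-HTB2. Yeast histone mRNAs carry poly-A tails, unlike most replication-dependent histone mRNAs of animals, so they are kept by the oligo(dT) enrichment used for these libraries.

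The promoter regions are shown as a description of the genes. The copies differed in their response in 3 of the 4 core histones, and each copy has a promoter region of its own. A link between promoter region and response was not tested. In the R64 assembly, HTB1 (chrIV:914317-914712, minus strand) and HTA1 (chrIV:915530-915928, plus strand) lie 817 bp apart, HTA2 (chrII:235394-235792, minus) and HTB2 (chrII:236492-236887, plus) 699 bp apart. HHF1 (chrII:255373-255684, minus) and HHT1 (chrII:256331-256741, plus) are separated by 646 bp, and HHT2 (chrXIV:575640-576050, minus) and HHF2 (chrXIV:576727-577038, plus) by 676 bp. HTZ1 (chrXV:303579-303983, minus) and HHO1 (chrXVI:308828-309604, minus) stand alone. Each of the 10 genes is a single coding exon, and none overlaps another annotated gene. The middle 200 bases of each divergent region are printed below on the plus strand of R64, from the RefSeq sequence, with matches to the Spt10 upstream activating sequence, searched on both strands as TTCC, then 6 free bases, then TTCNC, in capitals.
HTB1-HTA1, chrIV:915021-915220: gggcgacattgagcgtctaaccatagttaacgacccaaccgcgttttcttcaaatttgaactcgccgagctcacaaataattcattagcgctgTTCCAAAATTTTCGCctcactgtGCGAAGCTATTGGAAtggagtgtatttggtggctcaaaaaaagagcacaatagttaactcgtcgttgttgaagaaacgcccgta
HTA2-HTB2, chrII:236042-236241: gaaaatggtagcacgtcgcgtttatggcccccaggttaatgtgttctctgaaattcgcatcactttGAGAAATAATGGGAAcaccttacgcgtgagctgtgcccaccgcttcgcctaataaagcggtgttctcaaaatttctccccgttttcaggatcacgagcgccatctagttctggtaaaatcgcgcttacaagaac
HHF1-HHT1, chrII:255908-256107: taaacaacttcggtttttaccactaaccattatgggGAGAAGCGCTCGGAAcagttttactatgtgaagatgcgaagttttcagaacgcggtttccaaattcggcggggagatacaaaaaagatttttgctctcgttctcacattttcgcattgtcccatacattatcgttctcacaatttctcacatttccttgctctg
HHT2-HHF2, chrXIV:576289-576488: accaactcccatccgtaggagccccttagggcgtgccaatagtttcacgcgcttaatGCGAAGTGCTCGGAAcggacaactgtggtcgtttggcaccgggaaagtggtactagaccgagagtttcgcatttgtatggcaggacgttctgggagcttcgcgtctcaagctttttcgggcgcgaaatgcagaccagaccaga

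These letters were found in all 4 histone windows, with 2 matches in HTB1-HTA1 and 1 in each of the others. They were found in 17 of 1310 windows (1.30%) of the same length at the middle of divergent regions between protein-coding genes, the 4 histone windows included. The SBF box, searched as CNCGAAA on both strands, was in 1 of the 4 windows (HHT2-HHF2, 2 matches) and in 11.8% of the 1310. The MBF box, searched as ACGCGT, was in the HTA2-HTB2 window and in 2.67% of the 1310. HTB1-HTA1 had 3 SBF boxes in the rest of its intergenic region. No match of one motif overlapped a match of another in these regions. Spt10 is an activator of these same gene pairs, so its matches in all 4 histone windows are a description and not an independent test. A match describes the sequence and does not show binding.

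Copies of a histone gene are alike in sequence, which bears on how reads are assigned. The coding sequences of HHF1 and HHF2 were 97.4% identical, those of HTA1 and HTA2 93.7%, those of HHT1 and HHT2 93.2% and those of HTB1 and HTB2 87.9%. The longest stretch without a difference was 80 bp in the H4 copies, 74 bp in H3, 65 bp in H2A and 35 bp in H2B. The H3 proteins of both genes are the same, as are the H4 proteins, and the H2A and H2B proteins are 98.5% and 96.9% identical between copies. How the authors treated reads that fit both copies was not given in the sources used here, so the division of counts between copies, most of all between HHF1 and HHF2, is uncertain.

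Libraries held 17303313 to 21354011 counts. Histone counts per gene and library ran from 742 to 20428, so counting error was small beside the spread between samples. The 8 core genes together took 0.393% ± 0.0200 of the counts in controls and 0.320% ± 0.0195 in lectin samples (SD, n = 6 each). The highest lectin library, at 0.350%, was below the lowest control library, at 0.370%. Lectin 5, the largest library, had the highest normalized count of the 6 lectin samples in 8 of the 10 genes. Genes that mark a cells (MFA1, MFA2, STE2) and alpha cells (MF(ALPHA)1, MF(ALPHA)2, STE3) were all above the limit for testing, so markers of both mating types were detected. Mean normalized counts in controls were 67, 239 and 442 for the a-cell markers and 1068, 134 and 191 for the alpha-cell markers, in this order. Which cell types were present was not tested. All 3 a-cell markers were called lower (median log2 fold change -0.50), as were 16.1% of all tested features. Of the 3 alpha-cell markers (median 0.04), MF(ALPHA)1 was called lower, at -0.74 (DESeq2, adjusted p = 2.21e-40). The other 2 were not called. With the replicate block, MFA1 had an adjusted p of 0.0971 (DESeq2).

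Per kb of coding length, HHT2 was the most abundant in controls, at 2094 ± 226 CPM per kb (SD, n = 6, where CPM is counts scaled to library size). HTA1 (1757 ± 115) and HHF1 (1741 ± 49.3) came next and did not differ beyond their spread. They were followed by HHF2 (1554 ± 93.2), HHT1 (1355 ± 116) and HTB1 (1181 ± 41.2). HTA2, at 572 ± 28.0, and HTB2, at 228 ± 30.0, were the lesser copies of their families. HTZ1 had 196 ± 11.3 and HHO1 111 ± 8.36 CPM per kb. With the lectin, HHT1 (950 ± 131) came below HTB1 (1013 ± 115) and HTB2 (136 ± 36.1) below HTZ1 (154 ± 17.8), values within each other's spread, and the other genes kept their places.

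The comparison of lectin with control asked how the lectin changes the yeast transcriptome. Histone mRNA levels were lower with the lectin. Of the 10 genes, 9 fell at an adjusted p under 0.05 (DESeq2), where 16.1% of all tested features were called lower, 15.4% higher and 31.5% in either direction. The remaining gene was HTA1, the main H2A copy. The median log2 fold change (lectin over control) was -0.34 over the 10 genes and 0.00 over all tested features. In 5 of the 10, every lectin sample was below every control sample, which held for 6.72% of tested features, while in 5.85% every lectin sample was above every control. The 9 genes were called lower by edgeR too, where 15.0% of features were lower and 29.1% were called in all. With the replicate number as a block (10 samples), 14.1% of features were lower and 9 histone genes were called. Changes were moderate: HTB2, at -0.74, was furthest from 0, so no histone gene reached the study's own limit of an absolute log2 fold change of 1, which 0.257% of features passed.

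**Figure D1:**
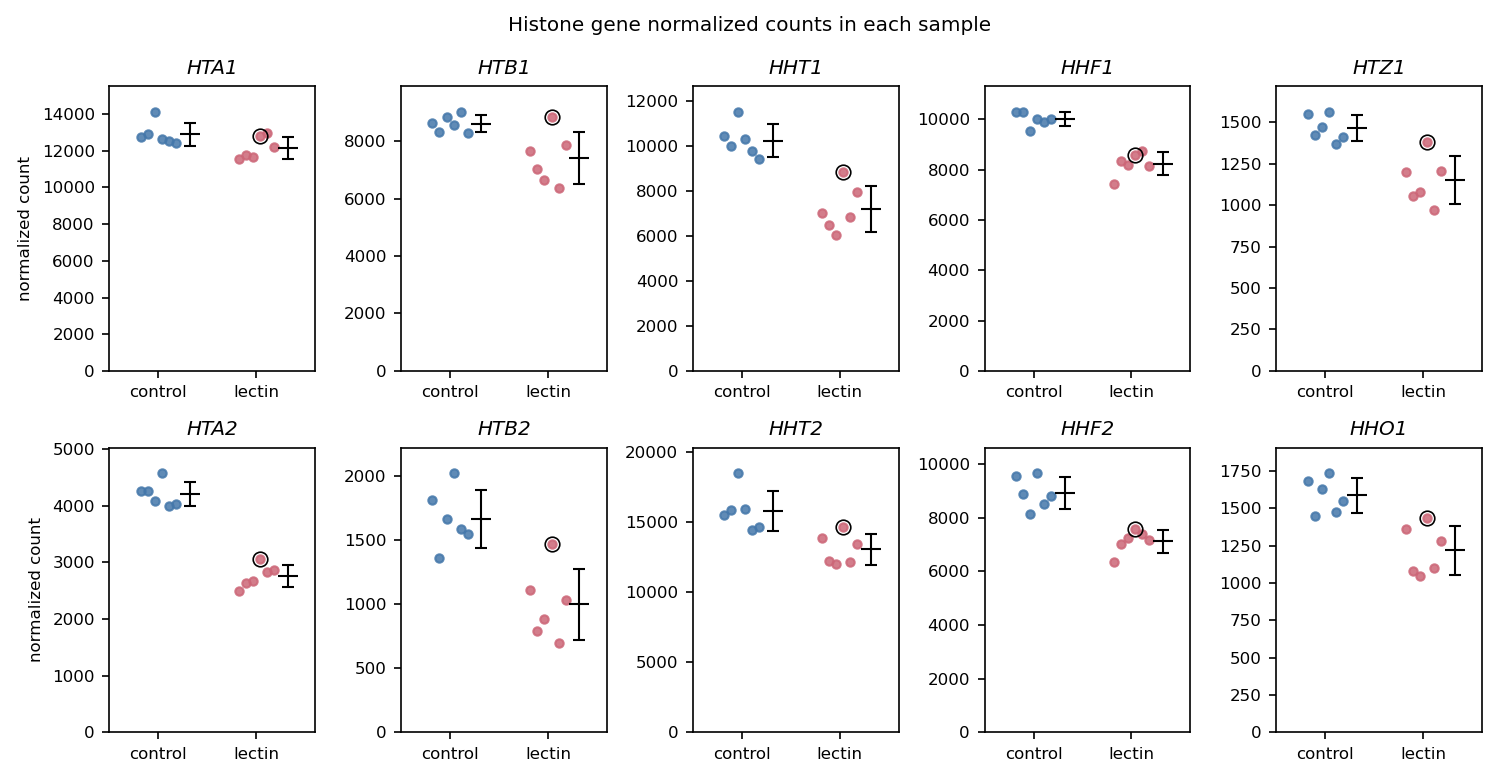
Normalized counts (vertical axis, counts divided by size factors, starting at 0) of each histone gene in the 6 control (blue) and 6 lectin (red) samples, 1 point per sample, with lectin 5 circled and the mean and SD in black. The lectin samples of HTA2 (2489 to 3062) lie well below the controls (4004 to 4572), while those of HTA1 (11571 to 12983) overlap the controls (12442 to 14118).

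The H2A copies differed in their change. The lowest, median and highest normalized counts of HTA2 were 4004, 4168 and 4572 in controls and 2489, 2752 and 3062 in lectin samples. The groups were far apart, and the highest lectin sample was lectin 5. HTA2 fell by 0.61 ± 0.054 (SE) on the log2 scale, a change of -34.3% (DESeq2, adjusted p = 3.05e-27). HTA1, which supplies most H2A mRNA, had 12442, 12687 and 14118 in controls and 11571, 11972 and 12983 in lectin samples. The groups overlapped, although 4 of 6 lectin samples were below the lowest control. The log2 fold change of HTA1 was -0.09 with a 95% interval from -0.17 to 0.00, and it did not pass the test (DESeq2, adjusted p = 0.131; edgeR, 0.175).

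H2B, which pairs with H2A in the nucleosome, showed a like order of its copies. HTB2 had a lowest, median and highest normalized count of 1362, 1621 and 2018 in controls and of 698, 957 and 1469 in lectin samples. Only lectin 5, at 1469, reached into the range of the controls. Its log2 fold change of -0.74 ± 0.18 (SE) was a change of -40.0% (DESeq2, adjusted p = 0.000419), and 19 of the 6237 tested features had a more negative value. HTB2 was also the most variable of the 10 genes, with a coefficient of variation of 13.7% in controls and 27.8% in lectin samples. HTB1 had 8297, 8603 and 9019 in controls and 6377, 7343 and 8833 in lectin samples. Again lectin 5 was the one lectin sample among the controls, and HTB1 fell by 0.22 ± 0.069 (SE) on the log2 scale (DESeq2, adjusted p = 0.00752; edgeR, 0.0197).

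In H3 the copies took the other order, HHT1 changing more than HHT2. HHT1 had a lowest, median and highest normalized count of 9409, 10157 and 11520 in controls and of 6063, 6928 and 8836 in lectin samples. The groups did not overlap, and lectin 5 was nearest to the controls. HHT1 fell by 0.51 ± 0.081 (SE) on the log2 scale, a change of -29.7% (DESeq2, adjusted p = 1.15e-08). HHT2, the most abundant histone mRNA, had 14457, 15703 and 18490 in controls and 12019, 12856 and 14638 in lectin samples. Lectin 5 lay above control 7 and below the other controls, and the other lectin samples were below all of them. HHT2 fell by 0.28 ± 0.067 (SE), a change of -17.5% (DESeq2, adjusted p = 0.000313).

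Both H4 copies fell. HHF1 had 9549, 10020 and 10288 as the lowest, median and highest normalized counts in controls and 7427, 8260 and 8740 in lectin samples. HHF2 had 8139, 8848 and 9655 in controls and 6356, 7208 and 7594 in lectin samples. In neither gene did the groups overlap. The log2 fold changes were -0.28 ± 0.042 (SE) in HHF1 (DESeq2, adjusted p = 5.96e-10) and -0.33 ± 0.054 in HHF2 (DESeq2, adjusted p = 4.32e-08).

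The variant and the linker histone also fell. HTZ1 had a lowest, median and highest normalized count of 1369, 1448 and 1562 in controls and of 973, 1141 and 1382 in lectin samples. Lectin 5 lay just above the lowest control and the other lectin samples below it. HTZ1 fell by 0.35 ± 0.075 (SE) on the log2 scale (DESeq2, adjusted p = 3.63e-05). HHO1 had 1448, 1587 and 1733 in controls and 1047, 1191 and 1437 in lectin samples. The groups of HHO1 were separated by the small gap between lectin 5 and control 3, and its log2 fold change was -0.38 ± 0.081 (SE; DESeq2, adjusted p = 3.34e-05). CSE4, the centromeric H3 variant and not one of the 10 genes, had 651 ± 30.9 normalized counts in controls and 610 ± 55.8 in lectin samples (SD, n = 6). Its log2 fold change of -0.09 did not pass the test (DESeq2, adjusted p = 0.282).

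**Figure D2:**
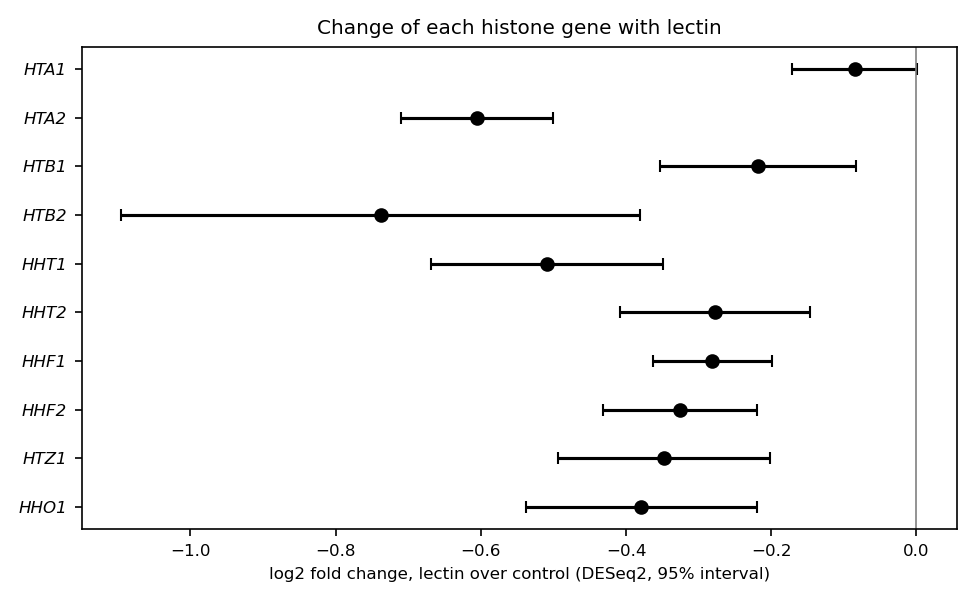
Log2 fold change (lectin over control, horizontal axis) of each histone gene with its 95% interval from DESeq2. HTB2 (-0.74), HTA2 (-0.61) and HHT1 (-0.51) are furthest from 0, and the interval of HTA1 reaches 0.

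Summed by protein, the decrease was smallest in H2A, whose main copy was the one not called. H2A mRNA went from 17100.2 ± 619 to 14923 ± 776 normalized counts (SD, n = 6 each), a change of -12.7%. H2B changed by -18.3%, H3 by -22.3% and H4 by -18.9%. Summed by promoter, the HTA2-HTB2 pair changed by -35.9%, the HHT1-HHF1 pair by -23.8%, the HHT2-HHF2 pair by -18.4% and the HTA1-HTB1 pair by -9.04%. In the HTA2-HTB2 pair the sums were 5579 to 6590 in controls and 3427 to 4530 in lectin samples, far apart. In the HTA1-HTB1 pair they were 20739 to 22945 and 18319 to 21631, and the groups overlapped. These sums are descriptions without a test. In RNA from whole cultures, fewer cells in S phase and less histone RNA per cell cannot be told apart.

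Whether the copies differed in their change was tested on ratios of counts within a sample, which need no scaling between libraries. 10 ratios were tested with exact two-sided permutation tests, and p-values were adjusted over the 10. The ratio of HTA1 to HTA2 had a lowest, median and highest value of 2.76, 3.06 and 3.46 in controls and of 4.18, 4.41 and 4.65 in lectin samples. Every lectin sample was above every control sample, and the log2 difference was 0.52 (exact permutation p = 0.00216, the smallest possible with 6 against 6; adjusted p = 0.0108). The ratio of HTB1 to HTB2 had values of 4.25, 5.34 and 6.10 in controls and of 6.01, 7.58 and 9.13 in lectin samples. All 6 lectin samples exceeded the control mean, with lectin 5 just inside the control range, and the log2 difference was 0.55 (exact permutation p = 0.00433; adjusted p = 0.0144). In both H2A and H2B the lesser copy lost more than the main one in proportion to its own level.

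In H3 the ratio of HHT1 to HHT2 ran from 0.623 over a median of 0.645 to 0.678 in controls, and from 0.504 over 0.547 to 0.604 in lectin samples. The groups did not overlap, and the log2 difference was -0.24 (exact permutation p = 0.00216; adjusted p = 0.0108). In H4 no difference between copies was detected: the ratio of HHF1 to HHF2 was 1.12 ± 0.0545 in controls and 1.16 ± 0.0264 in lectin samples (SD, n = 6 each; exact permutation p = 0.253, adjusted p = 0.317).

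**Figure D3:**
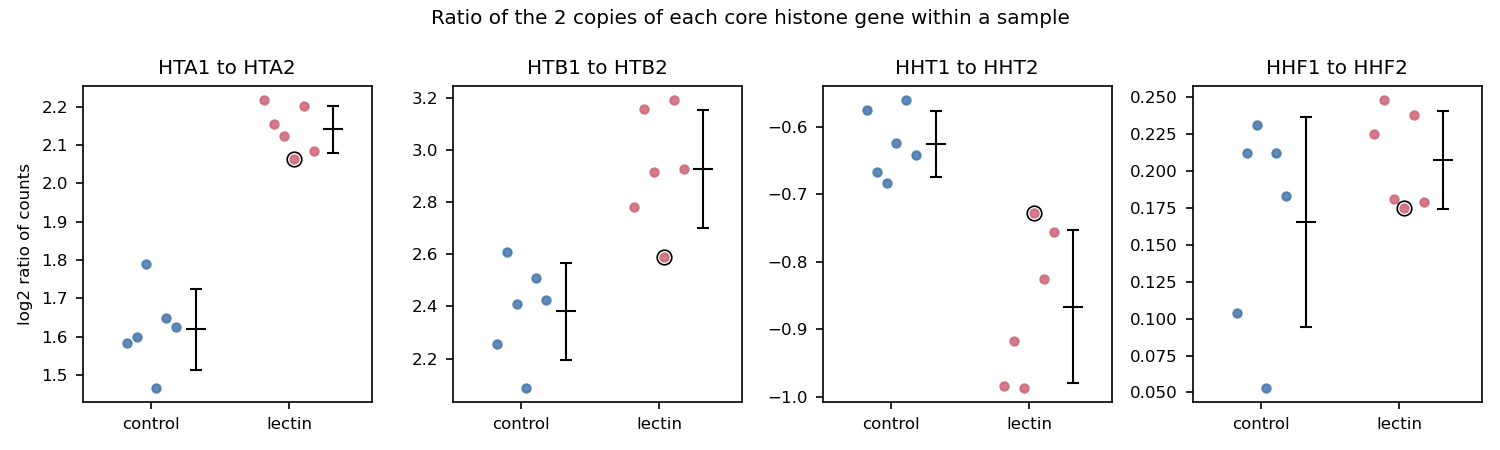
Log2 ratio of counts (vertical axis, a separate scale in each panel) of the 2 copies of each core histone gene in the control (blue) and lectin (red) samples, with lectin 5 circled and the mean and SD in black. The groups are separate for HTA1 to HTA2 and for HHT1 to HHT2, nearly so for HTB1 to HTB2, and overlap for HHF1 to HHF2.

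Genes that share a promoter region did not differ from each other in their change beyond the threshold. The log2 differences (lectin minus control) were 0.14 for HTA1 to HTB1 (exact permutation p = 0.0931, adjusted 0.155) and 0.16 for HTA2 to HTB2 (exact permutation p = 0.335, adjusted 0.373). They were -0.23 for HHT1 to HHF1 (exact permutation p = 0.0563, adjusted 0.121) and 0.05 for HHT2 to HHF2 (exact permutation p = 0.615, adjusted 0.615). The differences for HTZ1 relative to summed H2A (-0.16, exact permutation p = 0.0606, adjusted 0.121) and for HHO1 relative to the 8 core genes (-0.09, exact permutation p = 0.18, adjusted 0.257) did not pass either. Without lectin 5, the unadjusted p was 0.0303 for HTA1 to HTB1, 0.013 for HHT1 to HHF1 and 0.0216 for HTZ1 relative to H2A (exact permutation tests). A p above the threshold does not show that partners changed alike.

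Within the groups, the genes did not vary as a single block. Deviations of log2 normalized counts from the group means were correlated over the 12 samples for the 45 pairs of histone genes, and Pearson's r ran from -0.35 (HHT2 with HHF1) to 0.96 (HTB2 with HTZ1). It was above 0.5 in 21 pairs and below 0 in 7. HTB1, HTB2, HTZ1, HHO1, HHT1 and HHT2 deviated together, as did HTA2, HHF1 and HHF2, while HTA1 was nearest to the H3 genes. Lectin 6 shows the split, with the lowest lectin counts of HTB1, HTB2 and HTZ1 and the highest of HTA1 and HHF1.

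**Figure D4:**
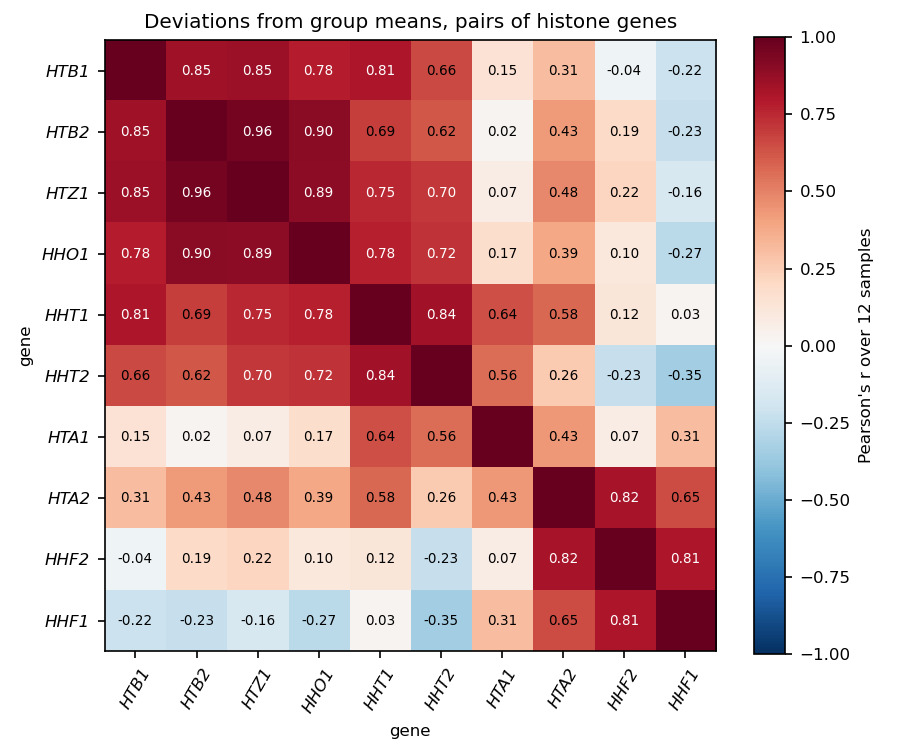
Pearson's r (colour and printed values) between the deviations of pairs of histone genes from their group means, over 12 samples. A block of HTB1, HTB2, HTZ1, HHO1, HHT1 and HHT2 has values from 0.62 to 0.96, and HTA2, HHF2 and HHF1 form a second group with values from 0.65 to 0.82.

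The copies and the promoter partners were then set side by side, a comparison of 8 pairs chosen after the values were seen. Among copies, r was 0.85 in H2B (Spearman's rho 0.77; permutation p = 0.00073 and 0.00502, adjusted p of r over 8 pairs 0.00291), 0.84 in H3 (rho 0.85; permutation p = 0.00067 and 0.00078, adjusted 0.00291) and 0.81 in H4 (rho 0.67; permutation p = 0.00109 and 0.019, adjusted 0.00291). Without the 2 samples furthest from the median of the first gene it was 0.56, 0.80 and 0.73. Within the controls alone it was 0.307 in H2B, 0.933 in H3 and 0.74 in H4. Within the lectin samples it was 0.945, 0.868 and 0.93. In H2A, r was 0.43 (rho 0.62; permutation p = 0.158 and 0.0363, adjusted 0.266), and 0.82 without control 4 and lectin 6. It was -0.156 within the controls and 0.821 within the lectin samples. Among promoter partners, r was 0.15 for HTA1 with HTB1 (rho 0.22; permutation p = 0.642 and 0.5, adjusted 0.734), and 0.73 without control 4 and lectin 6. It was 0.43 for HTA2 with HTB2 (rho 0.29; permutation p = 0.166 and 0.368, adjusted 0.266), and 0.42 without the 2 furthest samples. It was 0.03 for HHT1 with HHF1 (rho 0.00; permutation p = 0.936 and 1, adjusted 0.936) and -0.23 for HHT2 with HHF2 (rho -0.04; permutation p = 0.471 and 0.903, adjusted 0.628), and -0.29 and -0.18 without the 2 furthest samples. Within the controls, r of the partners in this order was 0.31, 0.596, -0.544 and -0.353. Within the lectin samples it was 0.129, 0.375, 0.165 and -0.092. Deviations were permuted over all 12 samples after the group means were removed, so the p-values are approximate. The adjustment over 8 pairs does not cover their choice from 45 pairs already seen. Copies share most of their sequence and partners do not, and the part of shared reads or base composition in these values was not tested.

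By the same measure, the genes most like the mean deviation of the 8 core histone genes were sought among 5648 other genes whose normalized counts averaged 100 or more. They were PRP24 (a spliceosome assembly factor, r = 0.95), GRX2 (a glutaredoxin, 0.95), HMO1 (a high mobility group protein that binds ribosomal DNA and ribosomal protein promoters, 0.94) and CDC42 (the polarity GTPase, 0.93), followed by YNL058C (0.93), CPR8 (0.93), MST1 (0.93) and DPI8 (0.92). HTZ1 (0.90) took place 22 and HHO1 (0.84) place 81. Lectin 5 carries much of this measure, with a deviation of 0.21 where the other samples lie between -0.09 and 0.07. Without it, r was 0.81 to 0.89 in the 8 genes, which were chosen as the highest with lectin 5 included. The median r over the 5648 genes was 0.025 in all 12 samples.

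Histone genes are read beside the genes that control them and the phases of the cell cycle. The counts of every list stand beside the 15.4% of all tested features called higher and the 16.1% called lower. Of 12 regulators of histone transcription, 4 were called higher, 1 lower and 7 in neither direction, with a median log2 fold change of 0.07. MBP1, the DNA-binding subunit of MBF, rose by 0.30 (DESeq2, adjusted p = 1.59e-05), and ASF1, a chaperone of H3 and H4 that acts with the HIR complex, by 0.28 (DESeq2, adjusted p = 2.44e-07). In the HIR complex, HPC2 rose by 0.15 (DESeq2, adjusted p = 0.0123) and HIR2 fell by 0.14 (DESeq2, adjusted p = 0.0304). With the replicate number as a block, the adjusted p of HPC2 was 0.252 and that of HIR2 0.229 (DESeq2). HIR2 also lost its call in 6 of the fits with 1 sample left out. The fourth higher gene was SPT10, at 0.17 with an adjusted p of 0.0483 in DESeq2 and 0.0571 in edgeR. It is outside the rule for named genes and was chosen after its value was seen.

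Of 12 genes for histone chaperones, assembly and import, 3 were higher and 3 lower, with a median of -0.07. Among all tested features 15.4% were higher and 16.1% lower. SCM3, the chaperone of Cse4, rose from 486 ± 23.9 to 668 ± 32.1 normalized counts (SD, n = 6 each), a log2 fold change of 0.46 (DESeq2, adjusted p = 7.1e-15). NAP1, a chaperone of H2A and H2B, rose by 0.24 (DESeq2, adjusted p = 1.41e-06), whereas KAP114, which imports H2A and H2B into the nucleus, fell by 0.22 (DESeq2, adjusted p = 0.000593). HIF1, a chaperone of H3 and H4, fell by 0.28 (DESeq2, adjusted p = 0.00246).

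Of 11 genes for exchange of Htz1, 5 were higher, 6 were not called and 0 were lower (edgeR, 5 and 0), with a median of 0.13. Leaving out control 2 or lectin 6 brought the higher genes to 3, and leaving out lectin 5 brought them to 6. Those fits called 831, 857 and 1197 of 6237 features higher, in this order, against 961 with all 12 samples. Correction for GC content and length gave 1 lower gene. The higher genes with the smallest p were VPS72 (0.30; DESeq2, adjusted p = 1.86e-08), BDF1 (0.31; adjusted p = 9.28e-05) and SWC4 (0.14; adjusted p = 0.0105), with SWC7 (0.35; adjusted p = 0.0246). With the block, the adjusted p of SWC4 was 0.158 (DESeq2). SWC7 had 0.0808 in limma-voom, and 0.0604 to 0.0889 in DESeq2 without control 2 or 4 or without lectin 3, 4 or 6. Of 6 genes for turnover of histone mRNA and protein, 1 was higher, 1 lower and 4 not called, with a median of 0.06. RAD53, the checkpoint kinase that also marks excess histones for degradation, rose by 0.20 (DESeq2, adjusted p = 0.000187). LSM1, an activator of mRNA decapping, fell by 0.28 (DESeq2, adjusted p = 0.0219). LSM1 lost its call without control 2 or 8, or without lectin 3, 4 or 6 (adjusted p from 0.0515 to 0.0658, DESeq2). Without lectin 5 the higher genes of this list were 3, in the fit with 1197 features called higher.

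Of 19 genes of the G1/S transition and DNA replication, 10 were lower, 9 were not called and 0 were higher (edgeR, 9 and 0), with a median log2 fold change of -0.18. Without lectin 5, 11 were lower and 1 higher, in a fit that called 1222 of 6237 features lower and 1197 higher. In the fit of all 12 samples, 1004 features (16.1%) were called lower and 961 (15.4%) higher. CLN2, a G1 cyclin, went from 3250 ± 179 to 2281 ± 80.8 normalized counts (SD, n = 6 each), a log2 fold change of -0.51 (DESeq2, adjusted p = 5.01e-28). PCL1, a cyclin of the Pho85 kinase, fell by 0.59 (DESeq2, adjusted p = 2.6e-18), RNR1, the large subunit of ribonucleotide reductase, by 0.43 (adjusted p = 5.1e-11), and CLN1 by 0.27 (adjusted p = 0.00117). In these 4 genes, named for their small adjusted p, every lectin sample was below every control sample. That held for 6.72% of all tested features. It also held for MCD1, a gene outside the rule for named genes, and the groups overlapped in the rest of the list.

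Among 8 G2/M genes, 3 were lower and 0 higher (edgeR, 3 and 0), with a median of -0.05. They were the mitotic cyclins CLB1 (-0.38; DESeq2, adjusted p = 5.72e-09) and CLB2 (-0.23; adjusted p = 0.0133) and the transcription factor SWI5 (-0.19; adjusted p = 0.00406). The adjusted p of CLB2 was 0.053 without control 6 (DESeq2). These lists are described by counts and medians, and their difference from other genes was not tested.

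**Figure D5:**
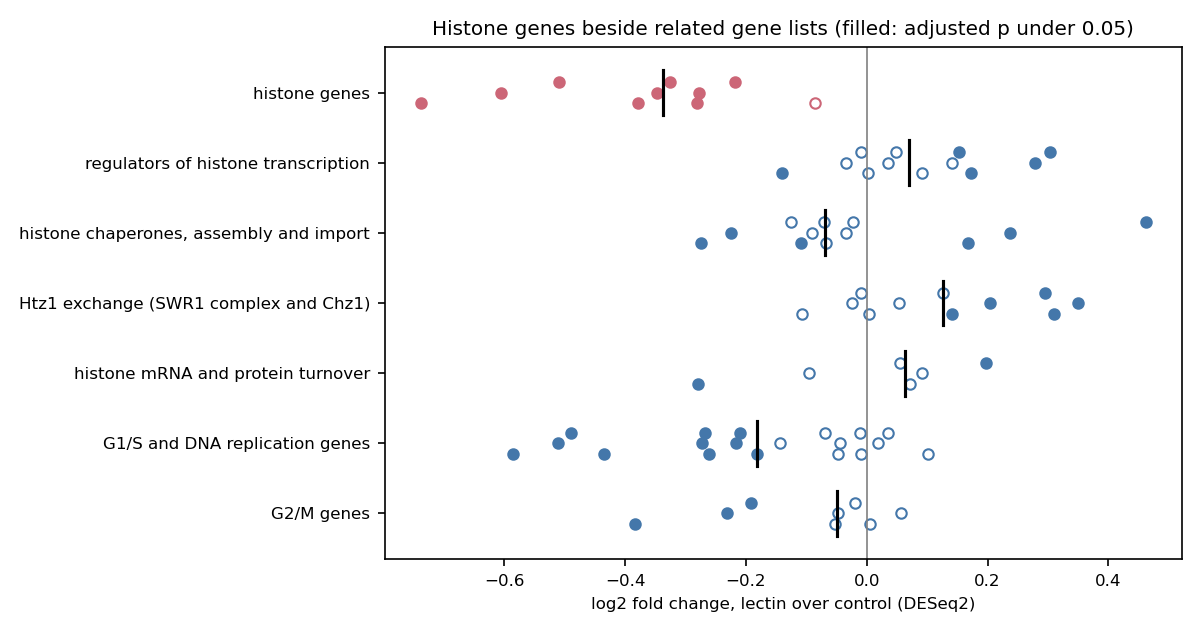
Log2 fold change (lectin over control, horizontal axis) of the histone genes (red) and of each list of related genes (blue), 1 point per gene, filled where the adjusted p was under 0.05 in DESeq2, with the median as a bar. Histone genes and the G1/S list lie mostly below 0, with medians of -0.34 and -0.18, and the Htz1 exchange list has a median of 0.13.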

How the data were processed

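The values are raw counts, as the authors deposited them. Trimming used fastp, alignment HISAT2 and counting featureCounts, on R64, per the submitters' processing notes. The design text speaks of FPKM, but the table holds whole-number counts, with 17303313 to 21354011 per sample. The design text calls the libraries strand-specific. Versions, strand setting and the treatment of multi-mapping reads were not given in the sources used here. A feature needed 10 or more counts in 6 or more samples. Testing used the DESeq2 1.42.0 Wald test (R 4.3.3, median-of-ratios size factors, Benjamini-Hochberg adjustment over all 6237), the tool named in the design text. edgeR 4.0.16 (quasi-likelihood) and limma 3.58.1 (voom) were alternatives. The tests were checked on data made with known changes. Ratios used exact permutation tests over samples, and correlations of pairs 100000 permutations. All 30 same-group pairs of samples differed beyond sampling noise (chi-square per degree of freedom 6.71 to 59.1). All list genes were matched in the reference table. Every histone gene was named, and in each list the called genes of smallest adjusted p, at most 4. One planned list and 1 gene of the G2/M list are not reported here. Alternatives were other scalings, filters and tools, the replicate block, each sample left out and, added after the data were seen, a GC and length correction. The members and lists were chosen with earlier results of these data known.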

Additional observations from a re-analysis of the deposited data

Results flagged for a closer look

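In 58 groups of 6 values, 6 had a lowest or highest sample set apart from the others by more than Dixon's 95% limit, where chance gives about 2.9. The groups share genes and are not independent. Control 4 accounts for 5 of the 6. In that sample HTA1 was at 14118 normalized counts, against 12442 to 12907 in the other controls, and HHT2 at 18489.5, against 14457 to 15920. Summed H3 was at 30009.7, against 24091 to 26251. The log2 ratio of HHT1 to HHF1 was 0.27 in control 4, against -0.09 to 0.04 in the other controls, and that of HHT2 to HHF2 was 1.18, against 0.70 to 0.84. In lectin 2, summed H4 was at 13783, against 15325 to 16169 in the other lectin samples.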

How the results depend on the processing

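The same 9 histone genes were called lower under each of the 22 alternatives, which covered tools, scalings, count filters, a correction for GC content and length (added after the data were seen), the block and leaving out each sample. All 220 fold changes kept their sign and call at 0.05. HTA1 stayed between -0.11 and -0.06 and HTB2 between -0.90 and -0.65. The number of called features was 1646 to 2419 with 1 sample left out. The count of histone genes stayed at 9. Numbers 2, 3, 4, 6 and 8 occur in both groups, and deviations of same-numbered samples correlated at -0.12 to 0.18. The labels do not say whether the numbers pair cultures, and low correlations cannot settle it. With the replicate block on 10 samples, 1730 features were called, 9 of them histone genes, where 14.1% of features were lower. In the paired permutation of the ratios the smallest possible p is 0.0625. It gave log2 differences of 0.54 for HTA1 to HTA2, 0.64 for HTB1 to HTB2 and -0.26 for HHT1 to HHT2, each at that p.

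With 1 sample left out, the log2 differences ran from 0.49 to 0.56 for HTA1 to HTA2, from 0.49 to 0.61 for HTB1 to HTB2, from -0.27 to -0.22 for HHT1 to HHT2 and from 0.02 to 0.05 for HHF1 to HHF2. They ran from 0.081 to 0.179 for HTA1 to HTB1, from 0.06 to 0.25 for HTA2 to HTB2, from -0.28 to -0.19 for HHT1 to HHF1, from -0.20 to -0.10 for HTZ1 to H2A and from -0.131 to -0.066 for HHO1 to the core genes. For HHT2 to HHF2 they ran from -0.003 (without lectin 2, the reversed sign) to 0.12. Without lectin 2, the unadjusted p was 0.0303 for HTZ1 to H2A and 0.0411 for HHO1 to the core genes, and without lectin 8 it was 0.0368 for HHT1 to HHF1 (exact permutation tests). The cause was not tested. Of 550 values of 25 named list genes under the alternatives, 526 kept their side and 24 were weaker. With Spearman's rho, 3 of the 8 genes most like the core histone genes were the same.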
